A study of Rattus norvegicus with 9 samples.

Results

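Imprinted growth genes were followed in the RNA of cultured rat neural stem cells (NSCs). The set held 10 genes, H19, Igf2, Igf2r, Dlk1, Meg3, Peg3, Peg10, Cdkn1c, Grb10 and Mest, out of 23953 genes in the count table, and was chosen by gene symbol. H19 was selected on its measured levels in the comparisons with the pLV-Exo-Wnt5a group, so its values are given as a description with no test. The set was chosen with earlier results of these data known. The sources used here do not say whether measured values also entered the choice of the other 9 genes. The NSCs came from the spinal cords of newborn rats and were kept in differentiation medium. The Con group received the medium alone, the Exo group received exosomes of bone marrow mesenchymal stem cells (BMSCs) that, by the study's methods, carried an empty lentiviral vector, and the pLV-Exo-Wnt5a group received exosomes of BMSCs that overexpressed Wnt5a from a lentiviral vector. Both vectors were placed in the donor BMSCs, not in the NSCs that were sequenced, and Con NSCs received no exosomes. Each group had 3 libraries, 9 in all, and the labels give all of them the same batch date. The labels do not say that the libraries came from separate cultures, so p-values measure the spread between these libraries, which may be technical.

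Total counts ranged from 32765138 to 40427647 per library. A gene with no count in a library could thus have held up to 3 counts there, or 0.0742 to 0.0916 CPM before TMM normalization (CPM is a count scaled to a common library size). The levels given below are CPM after TMM normalization. The limit of 3 counts covers counting error only. All 8 NSC markers examined, among them Sox2 and Nes, stood above 1 CPM in every library. So did all 8 neuron markers, all 8 astrocyte markers and 7 of the 8 oligodendrocyte lineage markers. The label NSC thus covers cultures whose RNA also held markers of these other cell types. In such bulk RNA, fewer cells of a type and less RNA per cell cannot be told apart. The rows of the table carry the symbols and NCBI numbers of mouse genes, whereas the cells are from rat, and how rat reads were assigned to them is not given in the sources used here.

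Genomic imprinting is the expression of a gene from the chromosome of only 1 parent, set by DNA methylation that is laid down in the egg or sperm. Imprinted genes lie in clusters, and many act on growth: paternally expressed genes such as Igf2 tend to promote it and maternally expressed genes such as H19, Igf2r, Cdkn1c and Grb10 tend to restrain it. H19 and Igf2 are neighbours that share enhancers. On the maternal chromosome the insulator protein CTCF binds between them and the enhancers act on H19, whereas on the paternal chromosome methylation keeps CTCF away and the enhancers act on Igf2. In the nervous system, Cdkn1c takes part in cell cycle exit of precursors, and Dlk1 is known from the maintenance of neural stem cells. Of the 10 genes, 5 are maternally expressed (H19, Igf2r, Meg3, Cdkn1c and Grb10) and 5 paternally expressed (Igf2, Dlk1, Peg3, Peg10 and Mest), in 8 clusters. This holds for most tissues: in neurons of the mouse Grb10 is expressed from the paternal chromosome and the imprint of Igf2r is relaxed. The counts do not separate the parental alleles, so imprinting itself was not measured.

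H19 is a long noncoding RNA that is also the precursor of miR-675, and it carries sites that bind let-7 miRNAs. The rat miRNAs are shown because they are the short RNAs through which H19 is known to act. The sequences are those of RefSeq on the rat build GRCr8, 5′ to 3′, with the seed (bases 2 to 8), the part of a miRNA that pairs with its targets, in capitals. The miR-675 hairpin lies within the H19 gene on the minus strand of chromosome 1, with the 5p arm at chr1:207161800-207161821 and the 3p arm at chr1:207161766-207161786. The miRNAs themselves were not measured in these libraries.
rno-miR-675-5p: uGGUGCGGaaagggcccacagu
rno-miR-675-3p: uGUAUGCCcuaaccgcucagu
rno-let-7a-5p: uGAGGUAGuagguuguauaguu
No other of the 693 rat mature miRNA names carried the seed of either miR-675 arm, whereas 8 other names carried the seed of let-7a-5p.

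Promoter windows, from 250 bases before to 50 bases after the annotated start on GRCr8, were at hand for 8 of the 10 genes, in 9 windows because Igf2 had a pair. H19 and Cdkn1c had no window, so what follows on windows does not cover them. The window of Igf2 that lies nearer to H19 and the window of Peg3 are printed as examples, with and without a GC box, of genes whose groups did not overlap in a comparison. Capitals mark the GC box GGGCGG, searched on both strands with overlapping matches allowed.
Igf2, chr1:207250426-207250725, minus strand: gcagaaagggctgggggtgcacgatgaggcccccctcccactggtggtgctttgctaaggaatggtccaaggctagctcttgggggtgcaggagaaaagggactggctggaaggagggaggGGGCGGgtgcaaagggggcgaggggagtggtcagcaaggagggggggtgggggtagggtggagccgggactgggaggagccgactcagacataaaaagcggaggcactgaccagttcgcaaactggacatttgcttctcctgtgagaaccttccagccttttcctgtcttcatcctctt
Peg3, chr1:76130744-76131043, plus strand: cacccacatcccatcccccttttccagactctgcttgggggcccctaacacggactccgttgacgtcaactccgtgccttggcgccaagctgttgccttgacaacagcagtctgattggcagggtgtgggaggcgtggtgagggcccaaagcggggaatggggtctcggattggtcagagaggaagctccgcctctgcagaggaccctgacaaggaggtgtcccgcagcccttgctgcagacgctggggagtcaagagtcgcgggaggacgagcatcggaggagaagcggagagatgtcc
The GC box was found in 7 of the 9 windows, against 33.1% of the 33469 windows of that length in the reference, and the windows without it were those of Peg3 and Meg3. Their GC content ran from 54.3% (Meg3) to 79.7% (Grb10), against a median of 51.67% over all windows. CpG dinucleotides, the bases that imprinting methylates, were at an observed over expected ratio from 0.28 in the printed Igf2 window to 1.04 in the Dlk1 window, against a median of 0.392, and 5 of the 9 windows combined a ratio above 0.6 with a GC content above 50%, as 31% of all windows did. The motif TATAAA was found in the Meg3 window, against 14.2% of all windows, and GCCATNTT, the core recognised by YY1, in 0 of the 9, against 6.96%. These matches describe the letters of the windows, since no binding or methylation was measured.

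H19 (NCBI gene number 14955) was the gene of the set whose level differed by far the most between groups. It was at 29.1, 19.1 and 17.4 CPM in Con replicates 1, 2 and 3, at 19.8, 16.2 and 17.7 CPM in the Exo replicates, and at 73.8, 57.8 and 94.4 CPM in the pLV-Exo-Wnt5a replicates. All 3 pLV-Exo-Wnt5a libraries were high and the other 6 were low, and the lowest pLV-Exo-Wnt5a level was 1.99 times the highest level of the other groups. The deposited counts behind these levels ranged from 576 to 3896, so that counting error was small beside the spread between libraries. The group means were 21.9 ± 6.28 CPM in Con, 17.9 ± 1.81 CPM in Exo and 75.3 ± 18.4 CPM in pLV-Exo-Wnt5a (SD, n = 3 each). Between pLV-Exo-Wnt5a and Exo, the log2 fold change (log2FC) was 2.08 with a standard error of 0.16, a fold change of 4.24. Between pLV-Exo-Wnt5a and Con, the log2FC was 1.78 with a standard error of 0.21, a fold change of 3.43. Between Exo and Con the log2FC was -0.29 with a standard error of 0.18, and the groups overlapped. Without Con replicate 1, the highest of the 6 libraries in that comparison, this difference was -0.039.

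**Figure D1:**
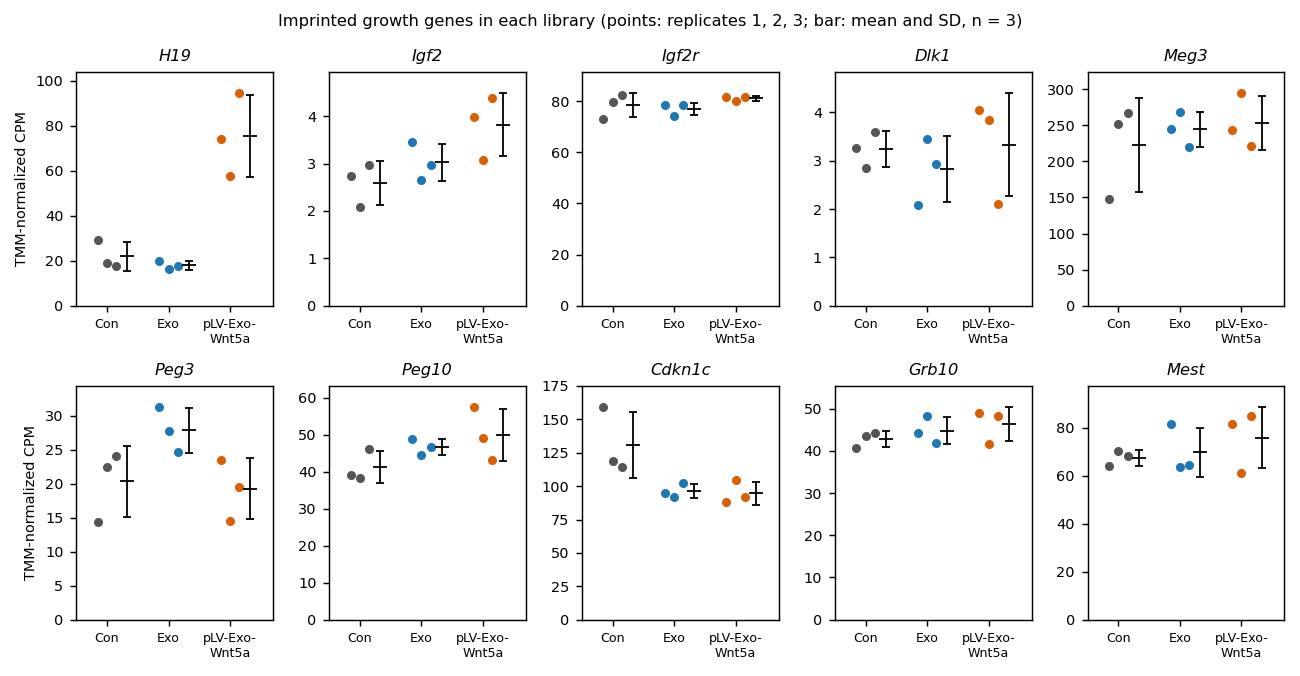
TMM-normalized CPM of the 10 imprinted growth genes (1 panel each, vertical axis from 0) in Con, Exo and pLV-Exo-Wnt5a; points are replicates 1, 2 and 3 from left to right and the bar is the mean with the SD (n = 3). H19 lies between 57.8 and 94.4 CPM in the pLV-Exo-Wnt5a libraries and at or below 29.1 CPM in the others, while Igf2r, Grb10 and Mest lie at similar levels in the 3 groups.

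A gene was counted as a differentially expressed gene (DEG) when its Q was under 0.05 (the quasi-likelihood p of edgeR, adjusted over all genes tested by the Benjamini-Hochberg method) and its fold change was above 2 or below 0.5. All 10 genes of the set passed the filter on low counts in each comparison. H19 was left out of the counts that follow. Between Exo and Con, 0 of the other 9 were DEGs, beside 0.00664% of the 15070 genes tested, and 2 (Peg3 and Cdkn1c) had an unadjusted p under 0.05, beside 14.9%. Between pLV-Exo-Wnt5a and Exo, 0 of the 9 were DEGs, beside 0.159% of 15132 genes, and 1 (Peg3) had an unadjusted p under 0.05, beside 12.0%. Between pLV-Exo-Wnt5a and Con, 0 of the 9 were DEGs, beside 0.0663% of 15089 genes, and 3 (Igf2, Peg10 and Cdkn1c) had an unadjusted p under 0.05, beside 8.35%. H19 had been selected on the comparisons with pLV-Exo-Wnt5a, and its place past these limits there is the choice itself and no test. With Con replicate 2 or pLV-Exo-Wnt5a replicate 3 left out, it did not meet them against Con, at a log2FC of 1.69 and 1.59. None of the other 9 genes had Q under 0.05 in any of the 3 comparisons. The median log2FC of the 10 genes was 0.058 between Exo and Con, 0.094 between pLV-Exo-Wnt5a and Exo and 0.14 between pLV-Exo-Wnt5a and Con, where the medians over all genes tested were 0.0020, 0.0049 and 0.0041. The comparisons share libraries, since each group enters 2 of them, and are not independent of each other.

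**Figure D2:**
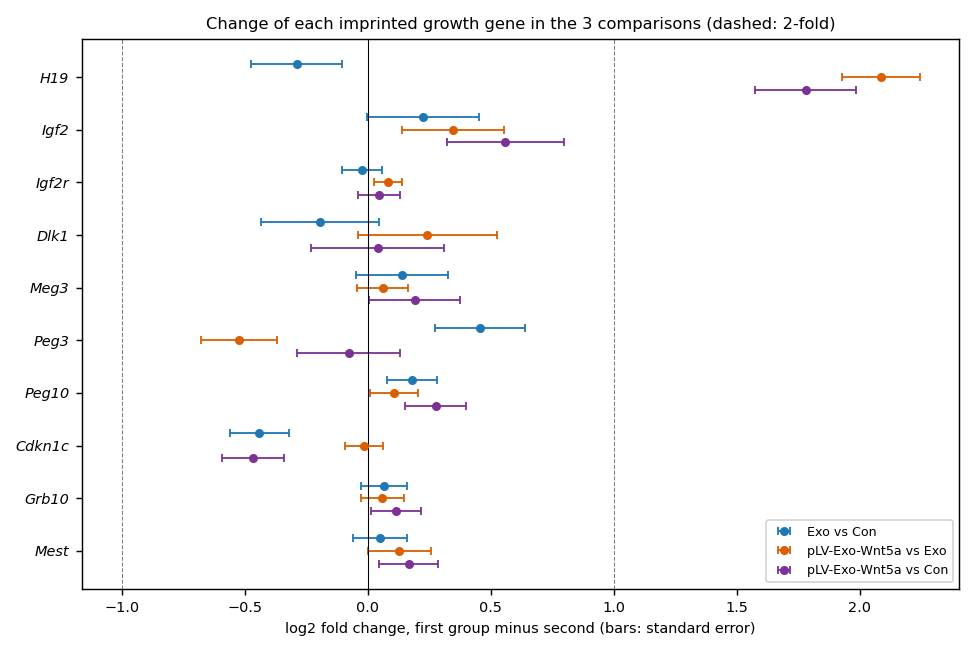
Log2 fold change (horizontal axis) of each of the 10 genes between Exo and Con, pLV-Exo-Wnt5a and Exo, and pLV-Exo-Wnt5a and Con; bars are standard errors and dashed lines mark a 2-fold difference. H19 lies beyond the dashed line at 2.08 and 1.78, and every other value lies between -0.52 and 0.56.

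Igf2 (NCBI 16002) encodes insulin-like growth factor 2, a secreted growth factor and the neighbour of H19. It was low in every library, at 2.74, 2.08 and 2.97 CPM in Con, 3.45, 2.66 and 2.98 CPM in Exo, and 3.99, 3.08 and 4.38 CPM in pLV-Exo-Wnt5a. Each pLV-Exo-Wnt5a library was above each Con library, while the Exo libraries overlapped both groups. The log2FC between pLV-Exo-Wnt5a and Con was 0.56 with a standard error of 0.24, and Q was 0.585. Between pLV-Exo-Wnt5a and Exo the log2FC was 0.35 (standard error 0.21, Q = 0.564), and between Exo and Con 0.22 (standard error 0.23, Q = 0.633). With 1 library left out these ranged from 0.23 to 0.48 and from 0.086 to 0.33, the lowest without pLV-Exo-Wnt5a replicate 3 and without Con replicate 2. H19 gave more counts than Igf2 in every library, by a ratio that ranged from 5.74 to 21.5, a ratio of counts and not of levels per length.

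Igf2r (NCBI 16004), the receptor that takes up IGF2 and leads it to degradation, varied least of the set. It was at 73.1, 79.8 and 82.2 CPM in Con, 78.4, 74.3 and 78.3 CPM in Exo, and 81.5, 79.97 and 81.6 CPM in pLV-Exo-Wnt5a, a highest level 1.12 times the lowest. The pLV-Exo-Wnt5a libraries stood just above all Exo libraries, with a log2FC of 0.081 (standard error 0.058, Q = 0.641). Grb10 (NCBI 14783), an adaptor protein that dampens signalling of the insulin and IGF1 receptors, was at 40.8, 43.4 and 44.3 CPM in Con, 44.2, 48.3 and 41.9 CPM in Exo, and 49.0, 41.7 and 48.3 CPM in pLV-Exo-Wnt5a. The 3 groups overlapped, and the log2FC of Grb10 was 0.066, 0.059 and 0.11 in the 3 comparisons with Q at or above 0.732. Among 25 tested genes of the IGF pathway (ligands, receptors, binding proteins and adaptors), 0 had Q under 0.05 with edgeR in each comparison, and 1, 7 and 6 had an unadjusted p under 0.05, beside 14.9%, 12.0% and 8.35% of all genes tested.

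Cdkn1c (NCBI 12577), the CDK inhibitor p57, was lower in both exosome groups than in Con. It was at 159, 118 and 115 CPM in Con, 94.9, 91.6 and 102 CPM in Exo, and 87.8, 105 and 91.6 CPM in pLV-Exo-Wnt5a. All 6 libraries of the exosome groups lay below the lowest Con library, and the exosome groups overlapped each other. The means were 131 ± 24.7 CPM in Con, 96.2 ± 5.33 CPM in Exo and 94.7 ± 8.79 CPM in pLV-Exo-Wnt5a (SD, n = 3 each). The log2FC was -0.44 between Exo and Con (standard error 0.12, Q = 0.265), -0.47 between pLV-Exo-Wnt5a and Con (standard error 0.13, Q = 0.392) and -0.015 between pLV-Exo-Wnt5a and Exo (standard error 0.077, Q = 0.963). Neither difference from Con met the limits for a DEG. Con replicate 1 was the highest library, and without it the log2FC from Con was -0.28 for Exo and -0.30 for pLV-Exo-Wnt5a. With genes of low counts kept in the test, the comparison with Con gave Q = 0.0226 in Exo and Q = 0.0186 in pLV-Exo-Wnt5a. Of the 18 tested CDK inhibitors, cyclins and related cell cycle genes, 0 were DEGs with edgeR in each comparison, and 4, 3 and 4 had an unadjusted p under 0.05, beside 14.9%, 12.0% and 8.35% of all genes tested.

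Peg3 (NCBI 18616) encodes a zinc finger protein known from growth and from maternal behaviour. It was at 14.4, 22.5 and 24.03 CPM in Con, 31.2, 27.7 and 24.6 CPM in Exo, and 23.5, 14.6 and 19.6 CPM in pLV-Exo-Wnt5a. The Exo libraries were the 3 highest, whereas Con and pLV-Exo-Wnt5a overlapped. The log2FC was 0.45 between Exo and Con (standard error 0.18, Q = 0.302), -0.52 between pLV-Exo-Wnt5a and Exo (standard error 0.16, Q = 0.197) and -0.079 between pLV-Exo-Wnt5a and Con (standard error 0.21, Q = 0.931). Without Con replicate 1, the lowest library, the difference between Exo and Con was 0.25. For the difference between pLV-Exo-Wnt5a and Exo, Q was 0.0392 with DESeq2 and 0.0226 with genes of low counts kept, so its place against 0.05 depended on the test. Its cluster neighbours Usp29 and Zim1 had Q at or above 0.408 in the 3 comparisons.

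Groups that do not overlap were common with 3 libraries each: 23.3% of all genes tested between Exo and Con, 16.5% between pLV-Exo-Wnt5a and Exo, and 16.6% between pLV-Exo-Wnt5a and Con. In the set these were 2 of 10 genes (Peg3 and Cdkn1c), 3 of 10 (H19, Igf2r and Peg3) and 3 of 10 (H19, Igf2 and Cdkn1c), respectively. With H19 set aside, by which the set was partly chosen, each comparison had 2 such genes among 9.

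Dlk1 (NCBI 13386), a membrane protein related to the Notch ligands, and Meg3 (NCBI 17263), a long noncoding RNA, lie in the same cluster and are expressed from opposite parental chromosomes. Dlk1 was low, at 3.27, 2.85 and 3.60 CPM in Con, 2.09, 3.45 and 2.93 CPM in Exo, and 4.04, 3.85 and 2.11 CPM in pLV-Exo-Wnt5a. The 3 groups overlapped, and Q was at or above 0.693 in each comparison. Meg3 was at 148, 252 and 267 CPM in Con, 244, 269 and 220.0 CPM in Exo, and 244, 294 and 222 CPM in pLV-Exo-Wnt5a. Con replicate 1 was low and the other 8 libraries overlapped. The log2FC of Meg3 was 0.14 between Exo and Con (standard error 0.19, Q = 0.717) and 0.19 between pLV-Exo-Wnt5a and Con (standard error 0.18, Q = 0.785), and without Con replicate 1 both turned to below 0, at -0.092 and -0.037. Rian, a long noncoding RNA of the same cluster, was at 237, 294 and 331 CPM in Con and at 363, 375 and 368 CPM in Exo, which did not overlap, with a log2FC of 0.36 (standard error 0.11, Q = 0.265). In pLV-Exo-Wnt5a, Rian was at 383, 406 and 299 CPM and overlapped both groups. Of 14 tested genes of Dlk1 and Notch signalling, 0 were DEGs with edgeR in each comparison, and 4, 1 and 2 had an unadjusted p under 0.05, beside 14.9%, 12.0% and 8.35% of all genes tested.

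Peg10 (NCBI 170676), a gene derived from a retrotransposon that is required for placenta formation, was at 39.2, 38.4 and 46.1 CPM in Con, 48.8, 44.4 and 46.6 CPM in Exo, and 57.4, 48.9 and 43.3 CPM in pLV-Exo-Wnt5a. The groups overlapped, although the lowest levels were those of Con replicates 1 and 2. The log2FC of Peg10 was 0.18 between Exo and Con (Q = 0.406), 0.11 between pLV-Exo-Wnt5a and Exo (Q = 0.735) and 0.27 between pLV-Exo-Wnt5a and Con (Q = 0.597), the last at 0.16 without pLV-Exo-Wnt5a replicate 1. Mest (NCBI 17294), which encodes a protein of the alpha/beta hydrolase fold, was at 63.9, 70.5 and 68.3 CPM in Con, 81.7, 63.5 and 64.5 CPM in Exo, and 81.6, 61.2 and 84.7 CPM in pLV-Exo-Wnt5a. The groups overlapped, each exosome group held high and low libraries, and Q of Mest was at or above 0.707 in each comparison.

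Con replicate 1 was the lowest of the 9 libraries for Igf2r, Meg3, Peg3 and Grb10 and the highest for Cdkn1c, so it was at an end of the range for 5 of the 10 genes. For the other libraries this held for 0 to 4 genes, with 4 in pLV-Exo-Wnt5a replicate 1 and 3 in pLV-Exo-Wnt5a replicate 3. The highest level over the lowest among the 9 libraries was 5.84 for H19 and between 1.12 (Igf2r) and 2.17 (Peg3) for the others. Together the 10 genes took between 0.0544% (Con replicate 1) and 0.0714% (pLV-Exo-Wnt5a replicate 2) of a library's counts.

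**Figure D3:**
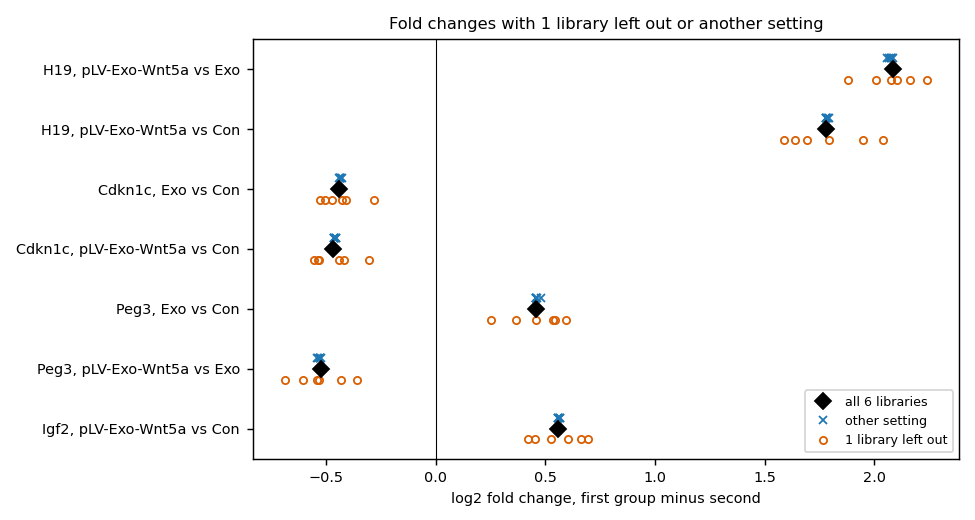
Log2 fold change (horizontal axis) of H19, Cdkn1c, Peg3 and Igf2 in the comparisons where their groups did not overlap, with all 6 libraries (diamond), under other settings (crosses) and with 1 library left out (open circles). No value crosses 0, and the values without 1 library spread more than those under other settings, from 1.59 to 2.04 for H19 between pLV-Exo-Wnt5a and Con.

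The other genes of the same clusters were taken next. Of 24 neighbours listed, 23 were in the table, and 14, 15 and 14 were tested between Exo and Con, pLV-Exo-Wnt5a and Exo, and pLV-Exo-Wnt5a and Con. None had Q under 0.05 with edgeR, and 1, 2 and 1 had an unadjusted p under 0.05, beside 14.9%, 12.0% and 8.35% of all genes tested. The median log2FC of the tested neighbours was 0.21, -0.091 and 0.087. Ins2, which lies beside Igf2 and encodes an insulin, had counts in 1 library alone, at 0.0273 CPM, under the limit that a count of 0 allows. Beside Cdkn1c, Kcnq1ot1, the noncoding RNA that silences the cluster on the paternal chromosome, was at or below 0.628 CPM in every library, and Phlda2 at or below 0.0303 CPM. Cd81, at the edge of that cluster, was at 332 to 384 CPM with Q at or above 0.566 in the 3 comparisons. Ddc, the neighbour of Grb10 that encodes a decarboxylase of dopamine and serotonin synthesis, was at 1.34, 0.976 and 1.51 CPM in Con, 0.868, 1.12 and 0.883 CPM in Exo, and 1.62, 1.77 and 1.89 CPM in pLV-Exo-Wnt5a. The pLV-Exo-Wnt5a libraries were the 3 highest for Ddc, with a log2FC of 0.89 against Exo (standard error 0.28, Q = 0.237).

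A wider list of 58 imprinted genes was examined under the same limits, of which 53 were in the table and 43, 44 and 43 were tested in the 3 comparisons. Apart from H19, which had been selected on these values, 0 of them were DEGs in each comparison. With H19 counted in, 9, 5 and 7 genes had an unadjusted p under 0.05, beside 14.9%, 12.0% and 8.35% of all genes tested. Its median log2FC was 0.12, -0.021 and 0.095. Under a looser limit, an unadjusted p under 0.05 with an absolute log2FC above 0.58, Exo against Con gave 4 of 43 genes above Con and 0 below, beside 3.56% and 0.909% of all genes tested. These were Ube3a (log2FC 0.90, standard error 0.29, Q = 0.265), a ubiquitin ligase imprinted in neurons, Plagl1 (0.68, standard error 0.23, Q = 0.277), a zinc finger regulator of growth, and Impact (0.63, Q = 0.293) and Inpp5f (0.60, Q = 0.265). With pLV-Exo-Wnt5a against Exo, 2 of 44 were higher (Ddc, and H19 by its selection) and 1 lower, beside 1.51% and 1.98%. The lower gene was Ube3a, with a log2FC of -0.98 (standard error 0.30, Q = 0.206). Its levels were 2.56, 2.05 and 3.03 CPM in Con, 6.87, 3.98 and 3.41 CPM in Exo, and 3.16, 2.21 and 1.79 CPM in pLV-Exo-Wnt5a, so the Exo libraries were the 3 highest. Between pLV-Exo-Wnt5a and Con, 1 of 43 was higher (H19) and 0 lower, beside 1.46% and 0.696%.

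Genes that set or read imprints, and genes tied to H19 RNA, were followed as lists. Among 20 tested genes of imprint maintenance and insulation, including Ctcf, the cohesin subunits and the DNA methyltransferases, 0 had Q under 0.05 with edgeR in each comparison, and 2, 4 and 0 had an unadjusted p under 0.05, beside 14.9%, 12.0% and 8.35% of all genes tested. Ctcf itself was at 62.5, 75.3 and 85.8 CPM in Con, 85.0, 79.2 and 77.4 CPM in Exo, and 76.98, 77.4 and 83.5 CPM in pLV-Exo-Wnt5a, and the groups overlapped. Under the looser limit, Dnmt3b, a DNA methyltransferase, was the only gene of that list, with a log2FC of -0.65 between Exo and Con (standard error 0.22, Q = 0.277). Among 15 tested genes of H19 RNA partners and the let-7 axis, 0 had Q under 0.05 with edgeR in each comparison, and 2, 3 and 2 had an unadjusted p under 0.05, beside 14.9%, 12.0% and 8.35% of all genes tested. Hmga2, a chromatin protein whose mRNA is a known let-7 target, was at 0.396, 0.308 and 0.454 CPM in Con, 0.510, 0.323 and 0.328 CPM in Exo, and 0.783, 0.955 and 0.799 CPM in pLV-Exo-Wnt5a. The 3 pLV-Exo-Wnt5a libraries were the highest, at low levels, with a log2FC of 1.13 against Exo (standard error 0.41, Q = 0.305) and 1.13 against Con (standard error 0.42, Q = 0.534). Igf2bp1, an RNA-binding protein that binds Igf2 and H19 RNA, had a log2FC of 0.58 between pLV-Exo-Wnt5a and Exo (standard error 0.22, Q = 0.326). Between Exo and Con, Rb1, a reported target of miR-675, had a log2FC of 0.71 (standard error 0.19, Q = 0.265).

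The genes whose pattern was most like that of H19 by Pearson's r were not imprinted genes. Over the 9 libraries, Pearson's r of log2 CPM with H19 was highest, of the 15457 other genes that passed the filter, for H2-D1 (0.990), H2-Q4 (0.989), Serpina3n (0.985), H2-K1 (0.977) and Gbp2 (0.970). Spearman's rho was 0.883, 0.967, 0.717, 0.933 and 0.933 in the same order, which placed them at ranks 71, 4, 446, 26 and 24 by rho. These are descriptions over 9 libraries that share their groups, and r was above 0.9 for 65 genes. H2-D1, H2-Q4 and H2-K1 are names of class I histocompatibility genes, which present peptides to T cells. They are close paralogs between which reads may have been split, and their mouse names on rat reads make the single members uncertain. Serpina3n, a serine protease inhibitor that is high in reactive astrocytes, was at 66.2, 35.2 and 39.9 CPM in Con, 34.6, 36.1 and 36.8 CPM in Exo, and 234, 224 and 266 CPM in pLV-Exo-Wnt5a. Like H19, it was high in all 3 pLV-Exo-Wnt5a libraries and highest in Con replicate 1 among the others. Gbp2, a GTPase induced by interferon, was between 1.08 and 2.11 CPM in the Con and Exo libraries and between 3.71 and 4.70 CPM in pLV-Exo-Wnt5a. Among the imprinted growth genes, r with H19 was 0.721 for Igf2 (rho 0.717, as for Serpina3n), 0.445 for Mest, 0.355 for Igf2r, 0.351 for Peg10, 0.345 for Grb10, 0.0099 for Dlk1, -0.029 for Meg3, -0.30 for Cdkn1c and -0.48 for Peg3.

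**Figure D4:**
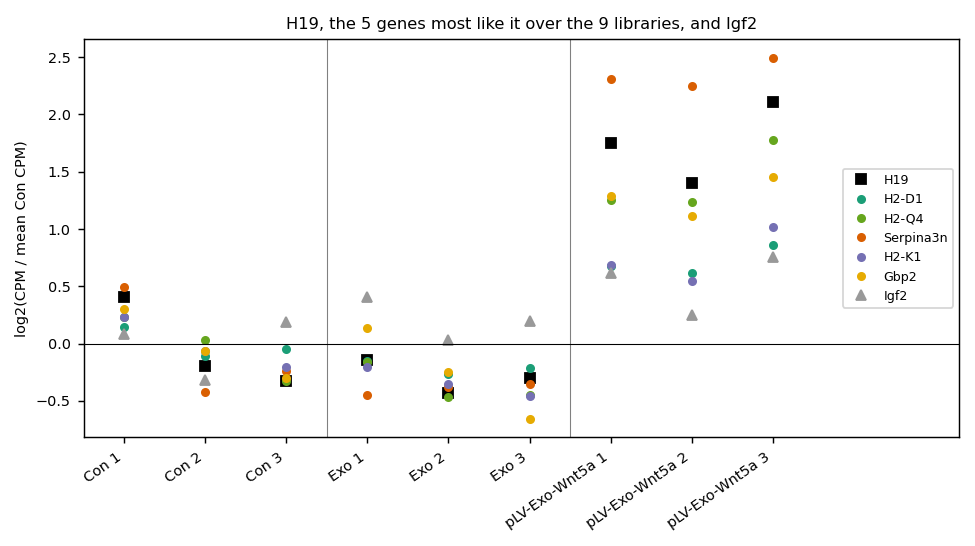
Log2 of the CPM in each library over the mean CPM of Con (vertical axis) for H19, the 5 genes most like it and Igf2, with libraries ordered by group along the horizontal axis. H19 and the 5 genes lie above the Con mean in all 3 pLV-Exo-Wnt5a libraries and in Con replicate 1, and Serpina3n lies above H19 in each pLV-Exo-Wnt5a library.

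Levels of cell type markers stood as follows beside H19. The summed level of the 8 astrocyte markers was 4986 to 6123 CPM in Con, 4896 to 4955 CPM in Exo and 6562 to 6910 CPM in pLV-Exo-Wnt5a, a sum that Gfap carried. Gfap, the main filament protein of astrocytes, was at 3103, 2261 and 2290 CPM in Con, 2195, 2213 and 2275 CPM in Exo, and 3971, 4071 and 4029 CPM in pLV-Exo-Wnt5a, so that it was high in the libraries where H19 was high. The other 7 astrocyte markers, summed without Gfap after its values were seen, came to 2725 to 3020 CPM in Con, 2680.1 to 2749 CPM in Exo and 2491 to 2881 CPM in pLV-Exo-Wnt5a, and the groups overlapped. Of the 8, 5 had a log2FC below 0 in each of the comparisons of pLV-Exo-Wnt5a with Exo and Con, beside 7356 of 15132 and 7426 of 15089 genes tested. The summed level of the 8 NSC markers was 3371 to 3642 CPM in Con, 2896 to 3385 CPM in Exo and 3278 to 4260 CPM in pLV-Exo-Wnt5a, and the groups overlapped. Vim, the intermediate filament protein vimentin and the NSC marker of the highest level, was at 2008, 1625 and 1564 CPM in Con, 1467, 1236 and 1302 CPM in Exo, and 2077, 1694 and 2358 CPM in pLV-Exo-Wnt5a. Between pLV-Exo-Wnt5a and Exo, Vim rose (log2FC 0.62, standard error 0.11, Q = 0.0389), and so did Gfap (log2FC 0.86, standard error 0.053, Q = 3.36e-05). The summed level of the 8 neuron markers was 2924 to 2991 CPM in Con, 2890.3 to 3436 CPM in Exo and 2722 to 3468 CPM in pLV-Exo-Wnt5a, most of it from Tubb3. The other 7, with Tubb3 left out in the same way, summed to 959 to 1276 CPM in Con, 1374 to 1555 CPM in Exo and 1201 to 1419 CPM in pLV-Exo-Wnt5a, so that Exo stood above Con. Of the 8 neuron markers, 7 had a log2FC above 0 between Exo and Con (median over the 8, 0.37), beside 7583 of the 15070 genes tested. An unadjusted p under 0.05 was found for 5 of the 8 with edgeR, beside 14.9% of all genes tested, and Q under 0.05 for 0. Dcx, a microtubule protein of young neurons, was at 51.3, 75.9 and 97.3 CPM in Con, 115, 117 and 98.6 CPM in Exo, and 75.0, 76.2 and 66.3 CPM in pLV-Exo-Wnt5a. Dcx fell from Exo to pLV-Exo-Wnt5a (log2FC -0.60, standard error 0.081, Q = 0.0113). Oligodendrocyte lineage markers summed to 2146 to 2419 CPM in Con, 2003 to 2173 CPM in Exo and 1935 to 2149.6 CPM in pLV-Exo-Wnt5a. Without Olig1 the other 7 summed to 1149 to 1262 CPM, 1031 to 1120.5 CPM and 1035 to 1114 CPM, so that Con stood above both exosome groups. The 8 markers of microglia and macrophages, of which 2 were above 1 CPM in every library, summed to 13.0 to 15.5 CPM in Con, 6.09 to 6.84 CPM in Exo and 11.1 to 15.4 CPM in pLV-Exo-Wnt5a. Of the 7 tested, 7 had a log2FC below 0 between Exo and Con (median -1.24), beside 7487 of 15070 genes. Between pLV-Exo-Wnt5a and Exo, 7 were above 0 (median 1.02), beside 7776 of 15132. Between pLV-Exo-Wnt5a and Con, 3 were above 0 and 4 below. Q was under 0.05 for 0 of them in each comparison. Mesenchymal and fibroblast markers summed to 158 to 183 CPM in Con, 163 to 172 CPM in Exo and 142 to 158 CPM in pLV-Exo-Wnt5a, most of it from Thy1, which neurons also express. Without Thy1, left out after its values were seen, the other 12 summed to 31.8 to 37.8 CPM, 29.0 to 35.0 CPM and 30.5 to 34.7 CPM, and the groups overlapped. Markers of skeletal muscle, a tissue where H19 is abundant, summed to at most 1.75 CPM in any library, and those of endothelium to at most 9.88 CPM. Markers of meninges and choroid plexus summed to 9.55 to 10.32 CPM in Con, 9.64 to 11.9 CPM in Exo and 8.05 to 13.2 CPM in pLV-Exo-Wnt5a. The highest sum was that of pLV-Exo-Wnt5a replicate 3, the library with the highest level of H19. That place rested on Ttr, which was at 3.32 CPM there and at or below 0.227 CPM in every other library. Of the listed markers that were in the table, none was at 0 in all 9 libraries. The part of these markers in the levels of H19 was not tested.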

How the data were processed

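The authors sequenced RNA of NSCs by paired-end Illumina sequencing, with 3 libraries for each of Con, Exo and pLV-Exo-Wnt5a. What they deposited is a table of raw counts (whole numbers, without normalization). The paper names HISAT2 for alignment, whereas the submitters' processing notes list Bowtie2, RSEM 1.3.1 and DESeq2 1.4.5. The labels describe RNA extraction with spin columns and the paper with TRIzol. The genome build and annotation are not given in the sources used here. Reads of rat cells carry mouse symbols, so a gene that differs between the species could be under-counted in every library alike.

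Groups were taken from the labels. Genes passing filterByExpr on the 2 groups compared went through TMM normalization and edgeR 4.0.16 (quasi-likelihood test, R 4.3.3), with 6 libraries per comparison. Levels are CPM normalized over all 9 libraries, and standard errors were derived from the F statistic. A prior count of 2 entered the log2 CPM behind likeness to H19. The steps were tested on simulated data. Named were the 10 genes, their cluster neighbours, the 5 genes most like H19, and from each gene list other than the markers up to 5 genes per comparison with unadjusted p under 0.05 and absolute log2FC above 0.58. Ctcf and cell type markers were named for their known roles or where they stood beside H19. The values of 1 further gene that this rule names are not reported here. The lists were imprinted genes, IGF pathway, imprint maintenance, H19 partners and let-7, CDK inhibitors, Dlk1 and Notch, and markers of 9 cell types. The members and lists were chosen with earlier results of these data known. The alternatives were RLE normalization, DESeq2 1.42.0, edgeR on all 9 libraries, 2 other filters (none, or a minimum of 10 counts per library), other thresholds, a replicate block, and leaving out each library. At 3 counts per library, levels under 0.0742 to 0.0916 CPM, taken before TMM normalization, were not measurable. Sequences were read from RefSeq tables on GRCr8, by symbol.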

Additional observations from a re-analysis of the deposited data

How the results depend on the processing

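RLE normalization, DESeq2, edgeR on all 9 libraries, both other filters and the replicate block left the direction of every log2FC of the 10 genes as it was. Genes past the DEG limits among the 10 numbered 0 (Exo against Con), 1 (pLV-Exo-Wnt5a against Exo) and 1 (pLV-Exo-Wnt5a against Con) under each of these, in each case H19, which had been selected on these comparisons, so that the count is no independent evidence. With the replicate number as a block, it was likewise 0, 1 and 1. Deviations of same-numbered libraries correlated at -0.20 to 0.063 over 9 pairs, so the numbers were not taken to pair the libraries. The looser limit counted 4 genes of the wider imprinted list between Exo and Con and 3 between pLV-Exo-Wnt5a and Exo. Without filtering, Q fell to 0.0226 and 0.0186 for Cdkn1c against Con (Exo and pLV-Exo-Wnt5a) and to 0.0226 for Peg3 between pLV-Exo-Wnt5a and Exo. DESeq2 gave 0.0392 for Peg3 there, and Q of Cdkn1c between Exo and Con was 0.0451 without Con replicate 3. The cause was not tested. Over all alternatives with 6 or 9 libraries, Q ranged from 0.0226 to 0.518 for Cdkn1c between Exo and Con, from 0.0186 to 0.416 between pLV-Exo-Wnt5a and Con, and from 0.0226 to 0.549 for Peg3 between pLV-Exo-Wnt5a and Exo.

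Leaving out 1 library at a time, the count of DEGs among the 10 genes and among the wider imprinted list ranged from 0 to 1 between pLV-Exo-Wnt5a and Con, and was 0 with Con replicate 2 or pLV-Exo-Wnt5a replicate 3 left out. The log2FC of H19 ranged from 1.88 to 2.24 against Exo and from 1.59 to 2.04 against Con. The log2FC then crossed 0 for Igf2r (-0.079 to 0.012), Meg3 (-0.092 to 0.29) and Mest (-0.075 to 0.12) between Exo and Con. Between pLV-Exo-Wnt5a and Exo it crossed 0 for Meg3 (-0.063 to 0.14), Peg10 (-0.0028 to 0.19) and Cdkn1c (-0.092 to 0.041). Between pLV-Exo-Wnt5a and Con it crossed 0 for Igf2r (-0.0025 to 0.079), Dlk1 (-0.13 to 0.29), Meg3 (-0.037 to 0.34) and Peg3 (-0.28 to 0.088). With 3 libraries a group, differences of this size were within the spread between libraries, and levels near 3 CPM, as of Igf2 and Dlk1, rested on 81 to 181 and 82 to 160 counts.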
